A study of Homo sapiens with 24 samples.

Results

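The genes described here encode lysosomal enzymes, the proteins that help them, lysosomal membrane proteins and the proton pump that acidifies the organelle, together with the transcription factors TFEB and TFE3. They were chosen from a fixed list of 40 lysosome genes, from which the cathepsins had been left out. Of these, 38 were measured by a probe set that names a single gene, out of 12165 genes in all, and DPP7 and ACP5 were not analysed here. The measured genes were 20 hydrolases, 3 lipid transfer and activator proteins, 7 membrane proteins, 6 parts of the proton pump and 2 transcription factors. A gene with several probe sets is represented by the brightest of them on average.

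RNA came from 4 established human acute myeloid leukemia cell lines on 24 one-colour Affymetrix arrays, in 8 groups of 3. MOLM-14 is a monocytic line that carries an MLL-AF9 fusion and an activating duplication in the kinase FLT3, U937 is monocytic, HL-60 is promyelocytic and KG-1 is an early myeloblast line. Each line grew for 24 h with 4 µM R406, the active form of fostamatinib and an inhibitor of SYK and other tyrosine kinases, or with the solvent dimethyl sulfoxide (DMSO). The unit µM is that of the treatment protocol, and the design description has mM. The labels do not tell if the 3 arrays of a group are from separate cultures. The p-values then reflect only how these samples vary, which may be technical. In bulk RNA, fewer cells of a kind and less RNA per cell cannot be told apart.

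Lysosomes break down material that arrives by endocytosis, phagocytosis and autophagy. Their hydrolases work in an acidic lumen, which the vacuolar proton pump (V-ATPase) maintains, and heavily glycosylated proteins shield the membrane around them. TFEB and TFE3 bind CLEAR elements, short palindromes around an E-box that occur in many lysosomal promoters. They are held in the cytoplasm by mTORC1 when nutrients are plentiful and enter the nucleus when that kinase is less active. Monocytes and macrophages are rich in lysosomes.

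R406 was followed by higher lysosomal transcripts above all in MOLM-14, where 32 of 38 genes rose and 2 fell. A gene is said to rise or fall where limma's test gave a Benjamini-Hochberg adjusted p under 0.05 over all genes. In MOLM-14, 31.1% of all genes rose and 25.0% fell. In KG-1, 24 of 38 rose and 2 fell, against 23.6% and 20.9% of all genes. In U937, 17 of 38 rose and 1 fell, against 6.12% and 5.43% of all genes. In HL-60, 13 of 38 rose and 4 fell, against 7.19% and 7.97% of all genes. Those that rose made up 52.99% of the calls among all genes in U937 and 53.05% in KG-1, or 40.7% and 44.08% after each array was centred on its median.

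Intensities below are on the linear scale of the deposited values. Each effect is the R406 mean less the DMSO mean of log2(intensity + 1), given ± SE, from 3 against 3 arrays. The scale understates changes of dim genes, and the SE comes from 1 variance per gene shared by the 8 groups. The median effect of the 38 genes was 0.81 in MOLM-14, 0.33 in KG-1, 0.18 in U937 and 0.089 in HL-60, beside medians over all genes of 0.068, 0.020, 0.0027 and -0.0029. Relative to the DMSO mean of their line, the median gene stood at 0.82, 0.81 and 0.76 on the MOLM-14 R406 arrays. In U937 it stood at 0.22, 0.22 and 0.24, and in HL-60 at 0.054, 0.13 and 0.095. On the KG-1 R406 arrays it stood at 0.39, 0.25 and 0.38, lowest on replicate 2. In every line the R406 arrays lay above the DMSO arrays, which ran from -0.041 to 0.035.

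**Figure D1:**
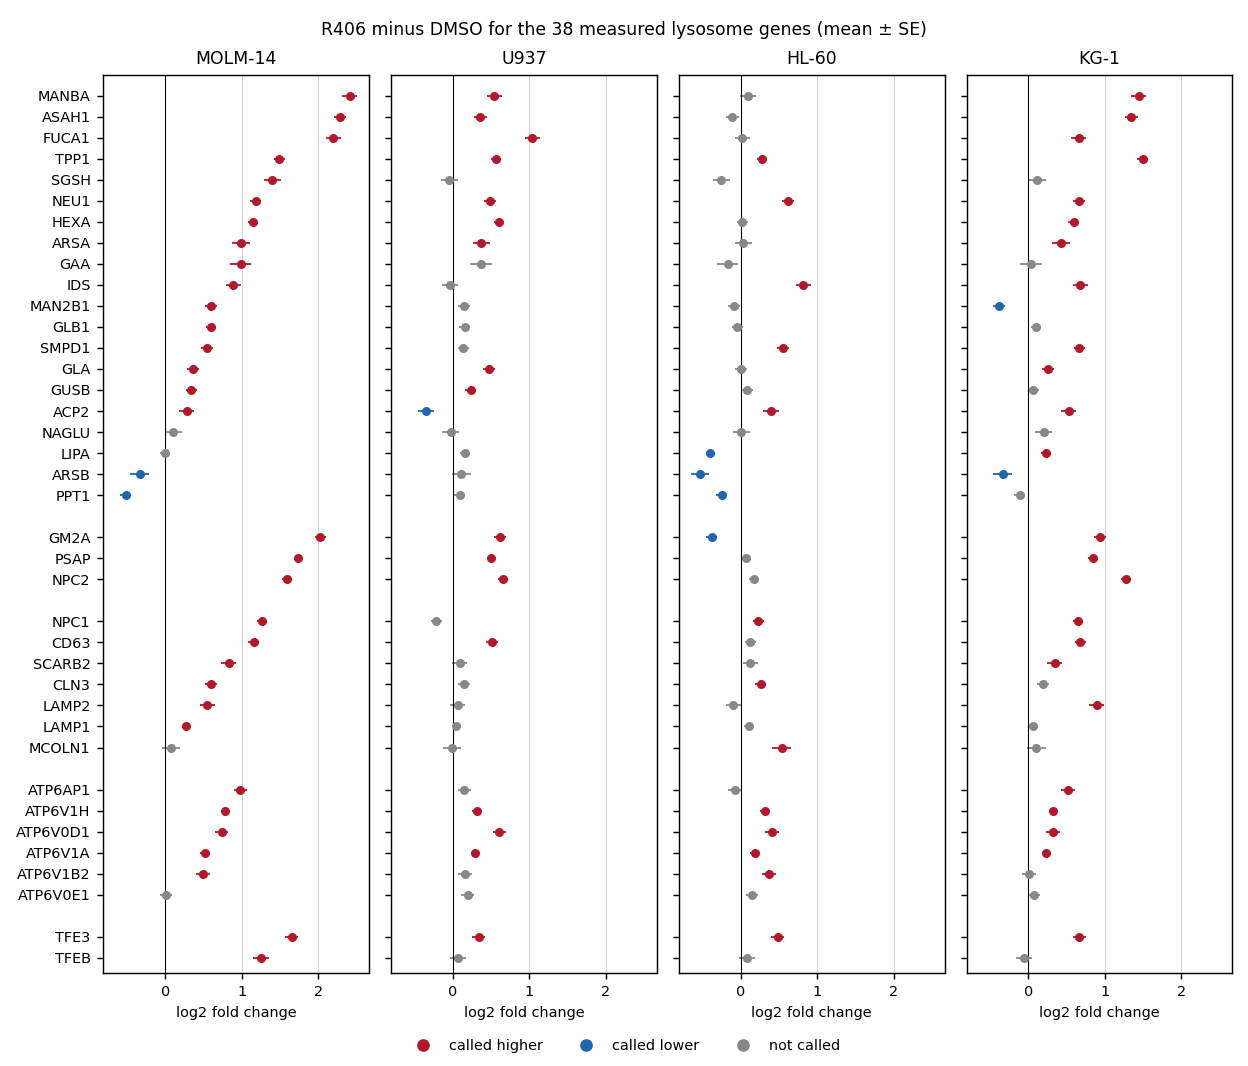
Effect of R406 on each measured lysosome gene in 4 cell lines: the horizontal axis is the log2 fold change, points are means from 3 against 3 arrays and bars are SE. Genes stand in the role groups of the text, ordered by their effect in MOLM-14, where 32 of 38 are called higher.

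**Figure D2:**
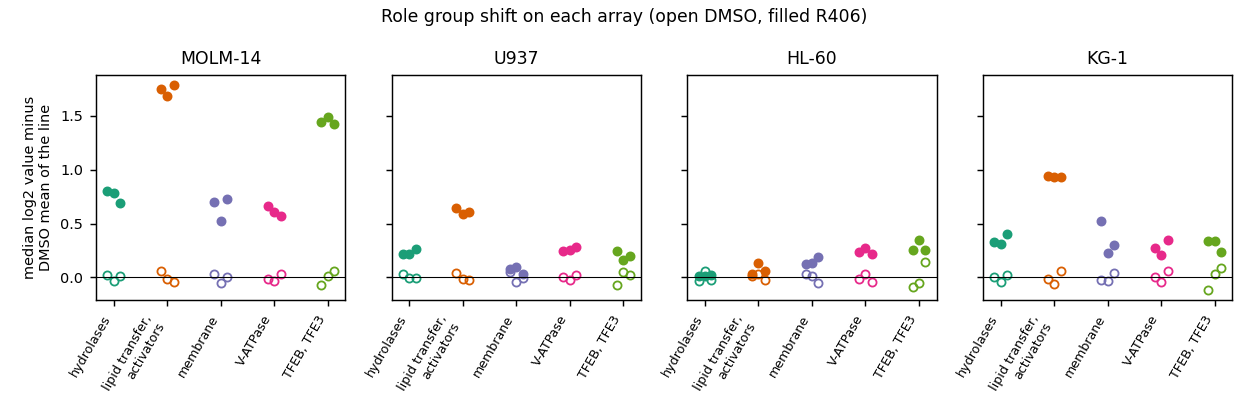
Median over the genes of a role group of the log2 value minus the DMSO mean of the line (vertical axis), for each DMSO array (open) and each R406 array (filled). The lipid transfer and activator proteins shifted most in MOLM-14, U937 and KG-1, and in HL-60 their R406 arrays lie near 0.

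Some measures of the arrays as a whole moved with treatment, and their part in these results was not tested. The spread of all genes around the group mean was widest on KG-1 R406 replicate 2 (SD of 0.18 on the log2 scale, against 0.088 to 0.16 on the other arrays). Without it, 25 of the 38 genes rose in KG-1 and 1 fell. The 3' to 5' log2 ratio of ACTB, a sign of RNA integrity, was 0.34 higher under R406 in MOLM-14 and 0.12 higher in KG-1, and it differed by -0.13 in HL-60 (2-sided exact permutation p = 0.1 each, the smallest that 3 against 3 allows) and by -0.039 in U937 (exact p = 0.6). The GAPDH ratio differed by 0.078 in MOLM-14 and by 0.10 in KG-1 (exact p = 0.1 each). Line markers were checked in DMSO, with the progenitor marker CD34 at 613 ± 103 in KG-1 DMSO and the granule enzyme MPO at 6416 ± 114 in HL-60 DMSO.

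The transcription factor TFE3 rose in all 4 lines. TFE3 in MOLM-14 read 43.5, 39.9 and 49.3 in DMSO and 135, 159 and 131 in R406, a rise of 1.65 ± 0.086 (adjusted p = 1.45e-13). TFE3 in KG-1 read 89.9, 92.2 and 89.2 in DMSO and 137, 158 and 139 in R406 (0.67 ± 0.086). TFE3 in HL-60 read 85.0, 87.7 and 94.4 in DMSO and 125, 129 and 121 in R406 (0.48 ± 0.086). In these lines each R406 array lay above each DMSO array. TFE3 in U937 read 84.9, 99.0 and 87.7 in DMSO and 121, 113 and 109.8 in R406 (0.34 ± 0.086), also without overlap. The U937 call ended without U937 DMSO replicate 1 (0.29) or 3 (0.31), or without R406 replicate 1 (0.30).

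TFEB rose in MOLM-14 and passed the test in no other line. TFEB in MOLM-14 read 87.8, 108 and 93.1 in DMSO and 238, 215 and 239 in R406, a rise of 1.253 ± 0.10 (adjusted p = 3.92e-10). TFEB in U937 read 70.7, 72.0 and 78.1 in DMSO and 77.5, 73.9 and 80.3 in R406 (0.069 ± 0.10). TFEB in HL-60 read 41.6, 42.5 and 52.4 in DMSO and 45.9, 50.5 and 47.8 in R406 (0.083 ± 0.10). In U937 and HL-60 the groups overlapped. TFEB in KG-1 read 11.4, 13.8 and 15.5 in DMSO and 14.4, 12.3 and 12.05 in R406 (-0.060 ± 0.10), near the low end of the intensities. The effect in MOLM-14 exceeded that in U937 by 1.18 ± 0.15 (adjusted p = 5.32e-07) and that in KG-1 by 1.31 ± 0.15 (adjusted p = 2.95e-07).

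Promoter windows were searched for the letters that these factors bind, which is a description of sequence beside the values. The RefSeq windows of build GRCh38.p14 run from 250 bases before to 50 after each transcript start. They held 26 of the 38 genes. The core of the CLEAR element, TCACGTGA, reads the same on both strands and contains the E-box CACGTG. It was present in windows of 5 of 26 genes (19.2%), against 1.18% of the 27305 genes in the table. The E-box was present in 8 of 26 (30.8%), against 8.78% of all genes. A gene was counted if any of its windows matched. By window, 6 of 41 held the core, against 0.98% of all windows, and 9 of 41 held the E-box, against 7.26%. CD63 had 8 windows and ARSB 2, and not all of them held the E-box. These are matches of letters in the windows, and binding was not measured. CLEAR elements occur in many lysosomal promoters, and these shares come from sequence alone, so they are no measure of an R406 effect. The 8 genes with an E-box are shown 5' to 3' on the strand of the gene, with each CLEAR core or E-box in capitals and 12 bases on either side.
LAMP1 (chr13:113297035-113297256, plus strand): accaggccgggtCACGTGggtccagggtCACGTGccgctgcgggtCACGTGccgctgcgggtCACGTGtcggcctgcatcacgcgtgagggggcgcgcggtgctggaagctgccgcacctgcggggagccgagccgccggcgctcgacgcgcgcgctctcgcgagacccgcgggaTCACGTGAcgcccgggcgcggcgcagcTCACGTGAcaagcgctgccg
GAA (chr17:80101492-80101568, plus strand): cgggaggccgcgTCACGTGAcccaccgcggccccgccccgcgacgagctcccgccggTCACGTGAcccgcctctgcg
MCOLN1 (chr19:7522570-7522628, plus strand): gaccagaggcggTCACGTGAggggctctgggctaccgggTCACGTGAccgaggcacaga
CLN3 (chr16:28492057-28492116, minus strand): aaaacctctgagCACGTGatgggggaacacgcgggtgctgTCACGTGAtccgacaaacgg
ATP6V0D1 (chr16:67481198-67481229, minus strand): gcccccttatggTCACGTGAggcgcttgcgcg
NEU1 (chr6:31862930-31862959, minus strand): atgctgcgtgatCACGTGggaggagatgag
CD63 (chr12:55729172-55729201, minus strand): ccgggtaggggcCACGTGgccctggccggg
ARSB (chr5:78986101-78986130, minus strand): taattcaataagCACGTGactaaaggattt

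The LAMP1 window held 6 E-boxes, 2 of them within a CLEAR core, and those of GAA and MCOLN1 each held 2 cores. In MOLM-14 the 5 genes with a core had effects of 0.99 ± 0.14 (GAA), 0.74 ± 0.090 (ATP6V0D1), 0.60 ± 0.077 (CLN3), 0.28 ± 0.057 (LAMP1) and 0.071 ± 0.12 (MCOLN1), the last of which did not pass the test. ATP6V0D1 and NEU1 rose in all 4 lines. ARSB, with a single E-box, fell in 3 lines. FUCA1, GM2A, NPC2, TPP1, NPC1, TFEB and TFE3, which rose by more than 1 on the log2 scale in MOLM-14, had windows in the table without these letters. NEU1 (1.18 ± 0.076) and CD63 (1.16 ± 0.073), with an E-box and no core, also rose by more than 1 there. HEXA, MANBA, SGSH, ASAH1 and PSAP did too and had no window in the table.

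Among the hydrolases, 16 of 20 rose in MOLM-14 and 2 fell, with a median effect of 0.75. In KG-1, 12 rose and 2 fell (median 0.34), and in U937, 9 rose and 1 fell (median 0.19). In HL-60, 5 rose and 3 fell, with a median of 0.015. NEU1, TPP1 and no other hydrolase rose in all 4 lines. NEU1, the lysosomal sialidase, had effects of 1.18 ± 0.076 in MOLM-14, 0.48 ± 0.076 in U937, 0.62 ± 0.076 in HL-60 and 0.66 ± 0.076 in KG-1. TPP1, a tripeptidyl peptidase, had effects of 1.49 ± 0.069, 0.57 ± 0.069, 0.28 ± 0.069 and 1.49 ± 0.069 in the same order. The probe set used for TPP1 can bind related transcripts, and without such probe sets the U937 effect was 0.079 and not called. The probe set left then was dim, with a mean of 21.5 against 809 for the one used. The others can also bind related transcripts. In U937 the brighter gave 0.50 ± 0.070, called higher, and the dimmer gave 0.36 ± 0.12, not called.

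MANBA, the beta-mannosidase that removes the last mannose of N-glycans, showed the largest effect of the 38 genes in MOLM-14. MANBA in MOLM-14 read 56.0, 50.8 and 59.8 in DMSO and 287, 331 and 281 in R406, a 5.40-fold rise of the mean (2.41 ± 0.10, adjusted p = 2.40e-15). MANBA in KG-1 read 124, 133 and 145 in DMSO and 335, 415 and 350.2 in R406 (1.44 ± 0.10). MANBA in U937 read 87.9, 92.7 and 85.1 in DMSO and 135, 141 and 114 in R406 (0.54 ± 0.10). In these lines every R406 array lay above every DMSO array. MANBA in HL-60 read 168, 185 and 153 in DMSO and 178, 188 and 174 in R406 (0.10 ± 0.10), with overlapping groups.

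ASAH1, the acid ceramidase, had a like order of effects. ASAH1 in MOLM-14 read 356, 346 and 364 in DMSO and 1704, 1721 and 1778 in R406, a 4.88-fold rise (2.28 ± 0.082, adjusted p = 2.98e-16). ASAH1 in KG-1 read 525, 601 and 566 in DMSO and 1318, 1724 and 1291 in R406 (1.34 ± 0.082). ASAH1 in U937 read 1753, 1742 and 1698 in DMSO and 2205, 2198 and 2256 in R406 (0.36 ± 0.082). The groups did not overlap in any of these lines. ASAH1 in HL-60 read 939, 1016 and 939.7 in DMSO and 873, 883 and 926 in R406 (-0.11 ± 0.082), where the R406 arrays lay below the DMSO arrays and the test was not passed. Its probe sets disagreed on the size in MOLM-14, where the next brightest gave 2.21 ± 0.10 and another gave 0.22 ± 0.089, and the latter gave 0.63 ± 0.089 in KG-1.

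FUCA1, the alpha-fucosidase, was the hydrolase that rose most in U937. FUCA1 in MOLM-14 read 215, 231 and 222 in DMSO and 1089.7, 1021 and 968 in R406, a 4.61-fold rise (2.20 ± 0.10, adjusted p = 1.20e-14). FUCA1 in U937 read 1837, 1629.6 and 1821 in DMSO and 3598, 3586 and 3641 in R406 (1.04 ± 0.10). FUCA1 in KG-1 read 89.1, 69.8 and 83.7 in DMSO and 110.002, 156 and 121 in R406 (0.66 ± 0.10). U937 thus held the highest levels both before and after R406, and the groups were separate in these 3 lines. FUCA1 in HL-60 read 714, 673 and 672 in DMSO and 692, 689 and 705 in R406 (0.019 ± 0.10), with no separation.

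Other hydrolases rose in MOLM-14 to different degrees. SGSH, a heparan sulfate sulfatase, rose by 1.40 ± 0.11 in MOLM-14 and passed the test in no other line, though without HL-60 DMSO replicate 1 it was lower in HL-60 (-0.37, against -0.25 with all arrays). SGSH was dim, with a mean of 10.6 in MOLM-14 DMSO, and its other probe set gave a smaller rise in MOLM-14 (0.37 ± 0.094). HEXA, a subunit of beta-hexosaminidase, rose by 1.15 ± 0.068, by 0.60 ± 0.068 in U937 and by 0.59 ± 0.068 in KG-1, against 0.022 ± 0.068 in HL-60. Without probe sets that can bind related transcripts the U937 effect of HEXA was 0.29 and not called, from a dim probe set (mean of 30.1 against 498). ARSA, the arylsulfatase that acts on sulfatide, rose by 0.99 ± 0.11 in MOLM-14, 0.37 ± 0.11 in U937 and 0.42 ± 0.11 in KG-1, and the U937 call ended without any 1 of the 6 U937 arrays (0.31 to 0.41). GAA, which degrades glycogen, and GLB1, the beta-galactosidase, rose in MOLM-14 alone, by 0.99 ± 0.14 and 0.60 ± 0.069. GLA, an alpha-galactosidase, rose by 0.36 ± 0.079 in MOLM-14, 0.47 ± 0.079 in U937 and 0.26 ± 0.079 in KG-1. The KG-1 call for GLA ended without KG-1 DMSO replicate 2 (0.20) or without R406 replicate 1 (0.22) or 3 (0.20), and its groups overlapped. GUSB, the beta-glucuronidase, rose by 0.34 ± 0.073 in MOLM-14 and by 0.23 ± 0.073 in U937, a call that ended without any 1 of the 6 U937 arrays (0.21 to 0.26). NAGLU, another enzyme of heparan sulfate breakdown, passed the test in no line, with effects from -0.031 to 0.20, or 0.35 and past the test in KG-1 without R406 replicate 2.

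IDS and SMPD1 rose in HL-60 as well as in MOLM-14 and KG-1. IDS, the iduronate sulfatase, had effects of 0.89 ± 0.10 in MOLM-14, 0.82 ± 0.10 in HL-60, 0.68 ± 0.10 in KG-1 and -0.035 ± 0.10 in U937. Its probe sets disagreed in KG-1, where a dimmer one fell (-0.41 ± 0.13), and their mean gave 0.10 there, not called. SMPD1, the acid sphingomyelinase, had effects of 0.55 ± 0.077, 0.55 ± 0.077, 0.67 ± 0.077 and 0.14 ± 0.077 in the same order, all from a probe set that can bind related transcripts. Of the other SMPD1 probe sets, the brightest gave -0.043 ± 0.13 in MOLM-14, -0.15 ± 0.13 in HL-60 and 0.072 ± 0.13 in KG-1, none of them called.

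5 hydrolases fell in at least 1 line. PPT1, which removes palmitate from proteins, read 1404, 1329 and 1344 in DMSO and 962, 879.7 and 1011 in R406 in MOLM-14, a change of -0.52 ± 0.075 (adjusted p = 2.84e-06). PPT1 in HL-60 read 1919.8, 1987 and 1967 in DMSO and 1622, 1658 and 1666 in R406 (-0.25 ± 0.075), and this call ended without any 1 of the HL-60 arrays other than DMSO replicate 1 (-0.26 to -0.24). PPT1 in U937 read 2813, 2511 and 2726 in DMSO and 2859, 2851 and 2840.02 in R406 (0.089 ± 0.075). Its arrays were thus lower under R406 in MOLM-14 and HL-60 and higher in U937, where the test was not passed. PPT1 in KG-1 read 1901, 1864 and 1920.02 in DMSO and 1799.9, 1519 and 1963 in R406 (-0.11 ± 0.075), with overlapping groups, and passed the test without R406 replicate 3 (-0.20).

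ARSB, the arylsulfatase that acts on dermatan sulfate, was a dim gene that fell in 3 lines. ARSB in HL-60 read 15.6, 18.9 and 17.6 in DMSO and 11.98, 11.8 and 11.3 in R406 (-0.53 ± 0.12, adjusted p = 0.00372). ARSB in MOLM-14 read 11.5, 12.7 and 12.8 in DMSO and 10.6, 8.23 and 10.0 in R406 (-0.33 ± 0.12). ARSB in KG-1 read 9.13, 9.97 and 8.63 in DMSO and 7.30, 6.17 and 7.90 in R406 (-0.34 ± 0.12). No R406 array reached a DMSO array in these lines. The call ended in MOLM-14 without DMSO replicate 2 (-0.31), DMSO replicate 3 (-0.31) or R406 replicate 2 (-0.24), and in KG-1 without DMSO replicate 1 (-0.35), DMSO replicate 2 (-0.29) or R406 replicate 2 (-0.25). ARSB in U937 read 13.1, 16.04 and 19.1 in DMSO and 14.3, 18.5 and 19.2 in R406 (0.11 ± 0.12).

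LIPA, the acid lipase for cholesteryl esters, fell in HL-60 and rose in KG-1, and the KG-1 call ended when arrays were centred on their medians (0.16). LIPA in HL-60 read 489.6, 462 and 417 in DMSO and 342, 345 and 349 in R406 (-0.40 ± 0.062, adjusted p = 9.21e-05). LIPA in KG-1 read 813, 762 and 769 in DMSO and 969, 895 and 886 in R406 (0.23 ± 0.062). The difference between these effects, HL-60 minus KG-1, was -0.63 ± 0.088 (adjusted p = 5.92e-06). LIPA in U937 read 539.6, 538 and 533 in DMSO and 573, 599 and 622 in R406 (0.15 ± 0.062). LIPA in MOLM-14 read 983, 939 and 962 in DMSO and 983, 926 and 961 in R406 (-0.0072 ± 0.062), the line with its highest DMSO level.

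MAN2B1, the lysosomal alpha-mannosidase, rose in MOLM-14 and fell in KG-1. MAN2B1 in MOLM-14 read 535, 429.97 and 492 in DMSO and 749.9, 736 and 718 in R406 (0.60 ± 0.079). MAN2B1 in KG-1 read 455, 385 and 423 in DMSO and 322, 308 and 335 in R406 (-0.39 ± 0.079, adjusted p = 0.000286). The effects differed by 0.99 ± 0.11 (adjusted p = 3.86e-07). MAN2B1 in U937 read 542, 478 and 535 in DMSO and 560.2, 565 and 589 in R406 (0.14 ± 0.079). MAN2B1 in HL-60 read 628, 555 and 597 in DMSO and 580.4, 554 and 542 in R406 (-0.085 ± 0.079).

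ACP2, the lysosomal acid phosphatase, fell in U937 and rose elsewhere. ACP2 in U937 read 19.2, 19.98 and 18.4 in DMSO and 16.3, 16.8 and 11.96 in R406 (-0.35 ± 0.10). ACP2 in KG-1 read 82.4, 78.7 and 92.2 in DMSO and 128, 113 and 124 in R406 (0.52 ± 0.10). ACP2 in HL-60 read 71.8, 78.8 and 76.5 in DMSO and 101, 91.9 and 108 in R406 (0.40 ± 0.10). The U937 arrays were the dimmest of the 4 lines, and the fall did not pass the test without DMSO replicate 1 (-0.35), 2 (-0.32) or 3 (-0.38) or without R406 replicate 3 (-0.20). ACP2 in MOLM-14 read 39.3, 37.3 and 39.4 in DMSO and 54.0, 42.5 and 45.6 in R406 (0.28 ± 0.10), a call that ended without DMSO replicate 2 (0.25) or R406 replicate 1 (0.18). In HL-60 it ended without R406 replicate 3 (0.34).

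The 3 lipid transfer and activator proteins rose together in MOLM-14, U937 and KG-1. Their median effects were 1.74, 0.61 and 0.94, and 0.075 in HL-60. GM2A, which lifts ganglioside for cleavage by beta-hexosaminidase, fell in HL-60. GM2A in MOLM-14 read 119, 118 and 113 in DMSO and 428, 501 and 510.4 in R406, a 4.12-fold rise (2.03 ± 0.076, adjusted p = 5.95e-16). GM2A in KG-1 read 107, 100.1 and 125 in DMSO and 212, 211 and 211 in R406 (0.94 ± 0.076). GM2A in U937 read 382, 366 and 364 in DMSO and 579, 559.9 and 566 in R406 (0.61 ± 0.076). Against these rises stood a fall in the line with the highest DMSO level. GM2A in HL-60 read 584, 520.5 and 551 in DMSO and 440.3, 413 and 418 in R406 (-0.38 ± 0.076, adjusted p = 0.00116), and its next brightest probe set gave -0.44 ± 0.087.

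PSAP, the precursor of the saposins that present sphingolipids to their hydrolases, was bright in all lines. PSAP in MOLM-14 read 689, 638 and 659 in DMSO and 2226, 2134 and 2287 in R406 (3.35-fold). PSAP in KG-1 read 874, 785 and 795 in DMSO and 1442, 1554 and 1406 in R406 (0.84 ± 0.062). PSAP in U937 read 522, 491 and 482 in DMSO and 698, 701 and 718 in R406 (0.50 ± 0.062). The R406 arrays lay above the DMSO arrays in each of them. PSAP in HL-60 read 1427, 1445 and 1373 in DMSO and 1448, 1551 and 1474 in R406 (0.075 ± 0.062), also without overlap but short of the test.

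NPC2 carries cholesterol within the lumen and hands it to NPC1 in the membrane. NPC2 in MOLM-14 read 349, 325 and 315 in DMSO and 999.7, 998 and 1000.1 in R406 (3.03-fold). NPC2 in KG-1 read 922, 899.6 and 970.4 in DMSO and 2166.2, 2337 and 2279 in R406 (1.28 ± 0.065). NPC2 in U937 read 1760.2, 1807 and 1861 in DMSO and 2831, 2871 and 2869 in R406. The rise in KG-1 exceeded that in U937, with a difference, U937 minus KG-1, of -0.62 ± 0.093 (adjusted p = 1.51e-05). NPC2 in HL-60 read 479, 577 and 513 in DMSO and 566, 591 and 602 in R406 (0.17 ± 0.065), with overlapping groups, and passed the test without HL-60 DMSO replicate 2 (0.24).

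**Figure D3:**
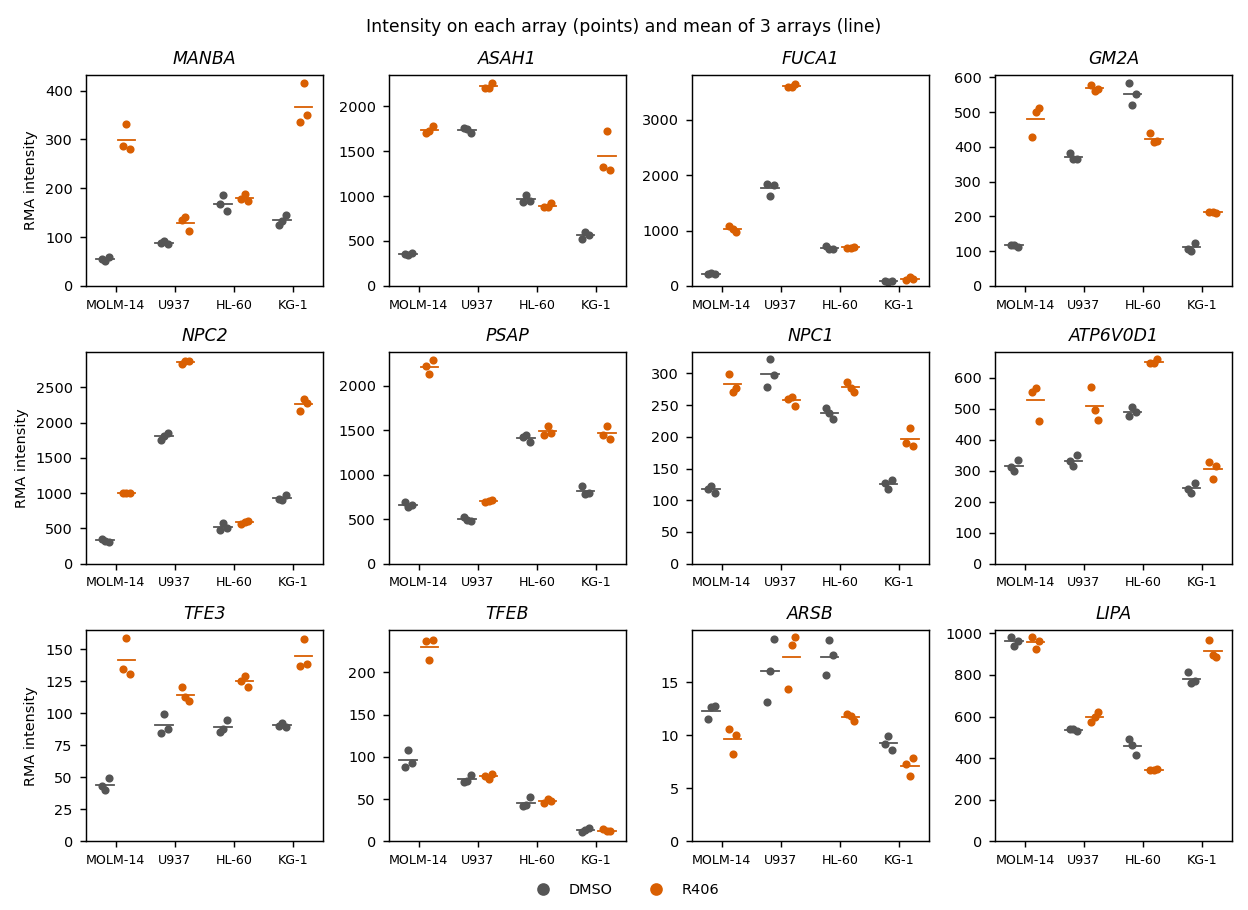
RMA intensity (vertical axis, linear scale from 0) of 12 genes on each of the 24 arrays, in DMSO (grey) and R406 (orange), with the mean of 3 arrays as a line. GM2A rises in MOLM-14, U937 and KG-1 and falls in HL-60, and TFEB rises in MOLM-14.

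Of the 7 membrane proteins, 6 rose in MOLM-14, 4 in KG-1, 3 in HL-60 and 1 in U937, and none fell by the test. Their median effects were 0.60, 0.34, 0.13 and 0.064 in that order. NPC1, the cholesterol exporter of the membrane, rose in 3 lines. NPC1 in MOLM-14 read 117, 122 and 112 in DMSO and 299, 271 and 278 in R406 (1.26 ± 0.070, adjusted p = 4.59e-13). NPC1 in KG-1 read 127, 117 and 132 in DMSO and 191, 214 and 186 in R406 (0.65 ± 0.070). NPC1 in HL-60 read 245, 238 and 229 in DMSO and 286, 277 and 270.1 in R406 (0.23 ± 0.070), a call that ended without DMSO replicate 2 or 3 (0.23 and 0.20) or R406 replicate 1 or 2 (0.21 and 0.23). The U937 arrays went the other way. NPC1 in U937 read 279, 323 and 297 in DMSO and 260.3, 262 and 249.2 in R406 (-0.22 ± 0.070, adjusted p = 0.0506), and without DMSO replicate 1 the fall passed the test (-0.27).

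CD63, a tetraspanin of late endosomes and lysosomes, rose in U937, where no other membrane protein gene was called by the probe set used. CD63 in MOLM-14 read 957, 896 and 928 in DMSO and 2079, 2134 and 1992 in R406 (1.16 ± 0.073). CD63 in KG-1 read 589, 579 and 643 in DMSO and 864, 1111 and 932 in R406 (0.68 ± 0.073). CD63 in U937 read 1557, 1604 and 1489 in DMSO and 2141, 2296 and 2193 in R406 (0.51 ± 0.073). All R406 arrays lay above the DMSO arrays in these lines. CD63 in HL-60 read 1711, 1744 and 1711 in DMSO and 1880.2, 1885 and 1865 in R406 (0.12 ± 0.073), also without overlap but short of the test.

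LAMP2 and LAMP1, the abundant glycoproteins that line the lysosomal membrane, differed. LAMP2 in KG-1 read 438, 534 and 479 in DMSO and 848, 904 and 941 in R406 (0.89 ± 0.10). LAMP2 in MOLM-14 read 587, 638 and 604 in DMSO and 962, 733 and 1007 in R406 (0.55 ± 0.10), while its dimmer probe sets gave 1.86 ± 0.077 and 1.504 ± 0.085 there. Its size in MOLM-14 thus depends on the probe set, and in KG-1 the same probe sets gave 0.82 ± 0.077 and 0.79 ± 0.085. In U937 they were called higher (0.39 ± 0.077 and 0.38 ± 0.085), unlike the one used. LAMP2 in U937 read 1393, 1258 and 1209 in DMSO and 1298, 1373 and 1358 in R406 (0.064 ± 0.10). LAMP2 in HL-60 read 955, 952 and 1105 in DMSO and 941, 945 and 927 in R406 (-0.10 ± 0.10). LAMP1 changed little in comparison, by 0.28 ± 0.057 in MOLM-14, a call, and by 0.044 ± 0.057, 0.11 ± 0.057 and 0.064 ± 0.057 in U937, HL-60 and KG-1.

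SCARB2, which carries glucocerebrosidase to lysosomes, rose by 0.83 ± 0.10 in MOLM-14 and 0.34 ± 0.10 in KG-1. Its dimmer probe sets gave 0.064 ± 0.12 and -0.038 ± 0.092 in MOLM-14, neither called. In KG-1 they gave -0.055 ± 0.12 and 0.34 ± 0.092, the latter called higher. CLN3, the membrane protein mutated in juvenile Batten disease, rose by 0.60 ± 0.077 in MOLM-14 and by 0.26 ± 0.077 in HL-60. The HL-60 call for CLN3 ended if DMSO replicate 3 (0.22) was left out, or R406 replicate 2 (0.16) or 3 (0.27), and in KG-1 (0.19 ± 0.077) the test was passed without R406 replicate 1 (0.22). MCOLN1, the cation channel that releases lysosomal calcium, was called in HL-60 alone (0.53 ± 0.12, adjusted p = 0.00297), against 0.071 ± 0.12 in MOLM-14.

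Of the 6 parts of the V-ATPase, 5 rose in MOLM-14, 4 in HL-60, 4 in KG-1 and 3 in U937, and none fell by the test. Their median effects were 0.63, 0.25, 0.28 and 0.24 in the same order. ATP6V0D1, a subunit of the membrane sector, rose in all 4 lines. ATP6V0D1 in MOLM-14 read 311, 298 and 334 in DMSO and 555, 566 and 459 in R406 (0.74 ± 0.090). ATP6V0D1 in U937 read 332, 314 and 352 in DMSO and 569, 495 and 462 in R406 (0.61 ± 0.090). ATP6V0D1 in HL-60 read 478, 506 and 488 in DMSO and 648, 648 and 660.2 in R406 (0.41 ± 0.090). In each line the R406 arrays lay above the DMSO arrays, KG-1 included. ATP6V0D1 in KG-1 read 241, 229 and 261 in DMSO and 328, 272 and 314 in R406 (0.32 ± 0.090).

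ATP6V1H, a regulatory subunit of the cytosolic sector, also rose in every line. ATP6V1H in MOLM-14 read 326, 317 and 329 in DMSO and 557, 540.2 and 573 in R406 (0.78 ± 0.056, adjusted p = 4.16e-11). ATP6V1H in U937 read 399, 411 and 397 in DMSO and 486, 489 and 523 in R406 (0.31 ± 0.056). ATP6V1H in HL-60 read 303, 313 and 308 in DMSO and 389, 393 and 366 in R406 (0.31 ± 0.056). The groups did not overlap in any line. ATP6V1H in KG-1 read 927, 902 and 926 in DMSO and 1175, 1084 and 1196 in R406 (0.32 ± 0.056), from a DMSO level well above that of the other lines.

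ATP6AP1, an accessory protein needed to assemble the pump, rose in 2 lines. ATP6AP1 in MOLM-14 read 372, 312 and 331 in DMSO and 724, 649.8 and 634 in R406 (0.98 ± 0.087). ATP6AP1 in KG-1 read 606, 541 and 647 in DMSO and 799, 946 and 824 in R406 (0.52 ± 0.087). ATP6AP1 in U937 read 1045, 894 and 1038 in DMSO and 1098, 1048 and 1147 in R406 (0.15 ± 0.087). U937 showed no overlap but did not pass the test. ATP6AP1 in HL-60 read 820.4, 808 and 785 in DMSO and 717, 785 and 791 in R406 (-0.075 ± 0.087), with overlap. The catalytic subunit ATP6V1A rose by 0.52 ± 0.062 in MOLM-14, 0.29 ± 0.062 in U937, 0.19 ± 0.062 in HL-60 and 0.23 ± 0.062 in KG-1, and the HL-60 call ended without any 1 of the 6 HL-60 arrays (0.17 to 0.21). With its probe sets averaged the KG-1 effect of ATP6V1A was 0.013 and not called. ATP6V1B2, its partner subunit, rose by 0.49 ± 0.091 in MOLM-14 and 0.38 ± 0.091 in HL-60. ATP6V0E1, a small subunit of the membrane sector, passed the test in no line (0.0087 to 0.19). Its probe sets disagreed, since 3 dimmer ones were called higher in MOLM-14 (0.24 ± 0.074, 0.29 ± 0.089 and 0.30 ± 0.085) and 2 of these in KG-1 (0.20 ± 0.074 and 0.23 ± 0.085).

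Across the lines, 6 of 38 genes rose in all 4 (TFE3, NEU1, TPP1, ATP6V0D1, ATP6V1H and ATP6V1A), or 15.8% of them, and 1.05% of all genes did. The U937 calls of TFE3 and TPP1 and the HL-60 and KG-1 calls of ATP6V1A ended under an alternative given with these genes. At least 3 lines showed a rise for 20 genes (5.35% of all genes) and at least 2 lines for 26 (19.7% of all genes). In exactly 1 line, 8 of the 38 genes rose (21.1%), as did 2715 of all 12165 genes. The 4 genes that rose in no line by the probe set used were ARSB, NAGLU, PPT1 and ATP6V0E1. They made up 10.5% of the 38, and 7059 of all 12165 genes rose in no line. In the mean effect of the 4 lines, 33 of 38 genes were higher (29.1% of all genes) and 2 were lower (24.0% of all genes). The latter were ARSB (-0.27 ± 0.061) and PPT1 (-0.20 ± 0.038). The mean effects were highest for MANBA (1.12 ± 0.049), FUCA1 (0.98 ± 0.049), ASAH1 (0.97 ± 0.041), TPP1 (0.96 ± 0.034) and NPC2 (0.93 ± 0.033).

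The R406 effect differed between lines for 34 of 38 genes by limma's moderated F test, as it did for 54.9% of all genes. The exceptions were GUSB, NAGLU, LAMP1 and ATP6V0E1. In pairwise tests, the effect in MOLM-14 was higher than that in U937 for 29 genes and lower for 2, against 22.4% and 21.4% of all genes. Against HL-60 it was higher for 28 and lower for 2 (23.4% and 21.9% of all genes), and against KG-1 higher for 26 and lower for 2 (15.6% and 17.9%). KG-1 exceeded U937 for 13 genes and HL-60 for 13, and fell short of them for 3 and 2. For all genes these shares were 16.1% and 18.1%, and 17.2% and 17.6%. U937 exceeded HL-60 for 10 genes, where 4.13% of all genes did, and fell short for 4, where 3.10% did. GM2A had the widest spread between lines (2.41 between MOLM-14 and HL-60), followed by ASAH1 (2.39) and MANBA (2.31).

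All 38 genes differed between the DMSO groups by the F test, as did 68.1% of all genes. U937 had the highest DMSO level for 17 genes and HL-60 for 13, against 6 for KG-1 and 2 for MOLM-14. Of all genes, 24.4%, 27.8%, 22.6% and 25.3% were highest in those lines. MOLM-14 had the lowest DMSO level for 16 genes and KG-1 for 13, and 22.3% and 33.3% of all genes were lowest in these lines. The widest range was that of FUCA1, at 1763 ± 115 in U937, 686 ± 23.7 in HL-60, 223 ± 8.09 in MOLM-14 and 80.9 ± 9.95 in KG-1 (mean ± SD, n = 3), a 21.8-fold range. TFEB ran from 96.3 ± 10.5 in MOLM-14 through 73.6 ± 3.94 in U937 and 45.5 ± 5.95 in HL-60 to 13.6 ± 2.08 in KG-1. NPC2 ran from 1809 ± 50.5 in U937 through 931 ± 36.2 in KG-1 and 523 ± 50.04 in HL-60 to 329.6 ± 17.3 in MOLM-14. TFE3 was lowest in MOLM-14 (44.2 ± 4.71), and the U937, HL-60 and KG-1 levels (90.5 ± 7.46, 89.0 ± 4.81 and 90.4 ± 1.55) lay within their spread of each other.

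**Figure D4:**
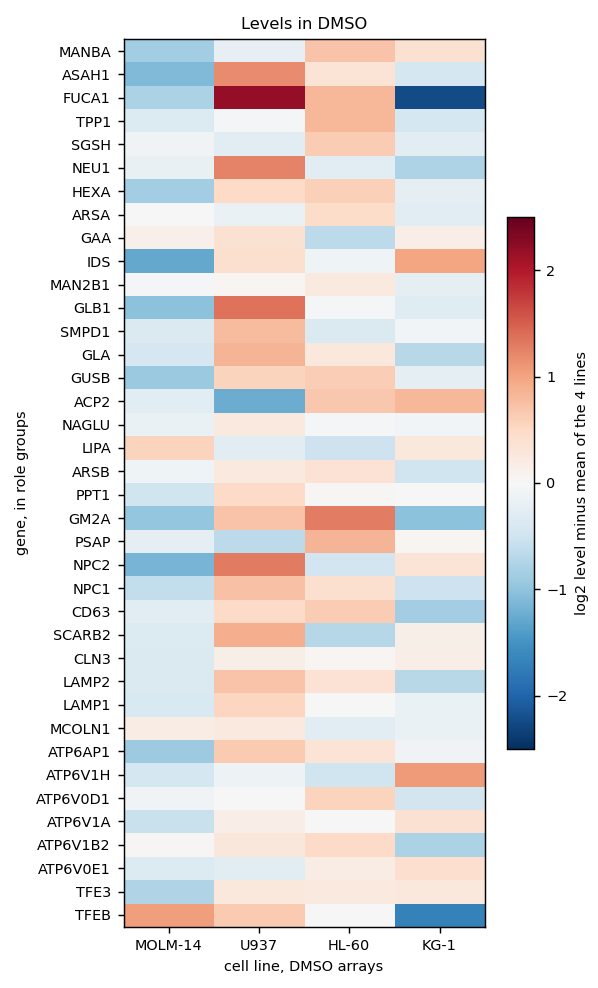
DMSO level of each measured gene in each line (columns), as log2 of the mean intensity plus 1 minus the mean of the 4 lines, from blue (low) to red (high). FUCA1 is highest in U937 and lowest in KG-1, and 16 of 38 genes are lowest in MOLM-14.

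For 18 of the genes more than 1 probe set was present, with 43 probe sets beyond those used. Calls in this paragraph come from a limma fit of all probe sets, with p-values adjusted over them. In that fit the probe set used for ATP6V1A was not called in HL-60 (adjusted p = 0.055). In MOLM-14, 28 of these 43 gave the same call as the one used and none the opposite call. The numbers were 31 and 0 in U937, 27 and 0 in HL-60, and 23 and 1 in KG-1, the 1 being that of IDS. Cases in which neither probe set was called count as the same call. Called higher were 30 of the 43 in MOLM-14, 7 in U937, 5 in HL-60 and 15 in KG-1. In HL-60 and in KG-1, 1 was called lower. In most other cases the probe set used was called and a dimmer one was not, 11 times in MOLM-14, 10 in U937, 16 in HL-60 and 17 in KG-1.

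Further genes of the pathway were taken from lists that do not overlap with the 38. Beside the counts of these lists and of the markers below, 31.1% of all genes rose and 25.0% fell in MOLM-14. The shares were 23.6% and 20.9% in KG-1, 6.12% and 5.43% in U937, and 7.19% and 7.97% in HL-60. Autophagy genes rose most often among these lists in MOLM-14, 14 of 18, with 1 lower, and in KG-1, 10 with 3 lower. In HL-60, 5 rose and 1 fell, and in U937, 4 rose. The cargo receptor SQSTM1 changed by 1.99 ± 0.078 in MOLM-14, 0.81 ± 0.078 in KG-1 and 0.62 ± 0.078 in HL-60. GABARAPL1 and GABARAP, which couple cargo to the autophagosome membrane, rose by 2.19 ± 0.17 and 1.78 ± 0.068 in MOLM-14.

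Of other lysosomal hydrolases, 9 of 13 rose and 2 fell in MOLM-14, 4 rose and 2 fell in KG-1, 3 rose in U937 and 1 in HL-60. HGSNAT, counted in this list though it is an acetyltransferase of heparan sulfate breakdown and not a hydrolase, rose by 1.49 ± 0.088 in MOLM-14. CTBS, a chitobiase, rose by 1.60 ± 0.12 in KG-1. GGH, which trims folate polyglutamates, fell by 2.21 on the log2 scale in MOLM-14 and by 0.70 in KG-1. Of other lysosomal membrane proteins, 11 of 17 rose and 1 fell in MOLM-14, 6 rose and 1 fell in KG-1, 2 rose in U937, and 2 rose and 3 fell in HL-60. The sialic acid exporter SLC17A5 changed by 1.83 ± 0.10 in MOLM-14 and -0.85 ± 0.10 in HL-60. SLC29A3, a nucleoside transporter, rose by 1.76 ± 0.11 in MOLM-14, and LAPTM4B fell there by 1.76 on the log2 scale.

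The other V-ATPase subunits were divided in MOLM-14 and KG-1, and none fell in U937 or HL-60. Of all genes, 31.1% rose and 25.0% fell in MOLM-14, and 23.6% and 20.9% in KG-1. The shares were 6.12% and 5.43% in U937, and 7.19% and 7.97% in HL-60. In MOLM-14, 6 of 13 rose and 2 fell, in KG-1, 5 rose and 3 fell, in U937, 4 rose and in HL-60, 3. TCIRG1 and ATP6V0A1, isoforms of the large subunit of the membrane sector, rose by 1.24 ± 0.10 and 1.20 ± 0.14 in MOLM-14, while a further isoform, ATP6V0A2, changed by -1.03 ± 0.075. Among genes that sort enzymes to lysosomes, 10 of 16 rose and 4 fell in MOLM-14, 6 rose and 4 fell in KG-1, 2 rose in U937 and 1 in HL-60. VPS11, a tethering subunit, rose by 1.22 ± 0.075 in MOLM-14, the adaptor GGA2 by 1.01 ± 0.10, and the clathrin adaptor gene AP1S1 changed by -0.94 ± 0.13. Of the genes that control TFEB or dock mTORC1, 5 of 12 rose and 3 fell in MOLM-14 and in KG-1, 5 rose and 1 fell in U937, and 1 rose and 1 fell in HL-60. RRAGC and RRAGD, GTPases that bring TFEB and mTORC1 to the lysosome, rose by 1.31 ± 0.075 and 0.96 ± 0.079 in MOLM-14, and RRAGB rose by 0.90 ± 0.13 in KG-1.

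**Figure D5:**
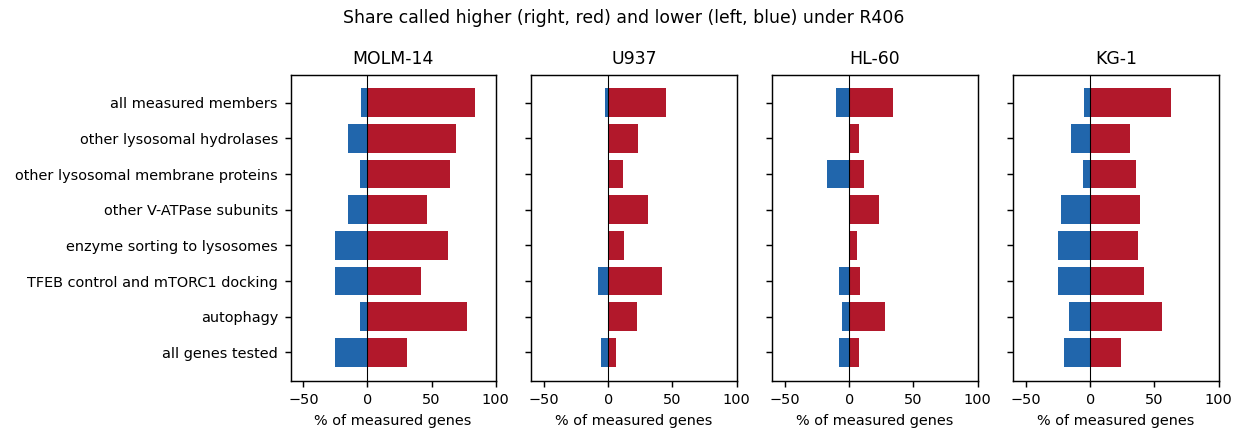
Share of the measured genes of each list called higher (right) or lower (left) under R406 in each line, in percent, with all 12165 genes in the bottom row. The 38 lysosome genes and the autophagy genes have the largest shares called higher in MOLM-14.

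Monocyte and macrophage markers, which mark a cell state rich in lysosomes, moved with treatment in some lines, and their part in the lysosomal changes was not tested. The names on this list include CD68 and the cathepsin gene CTSS, whose products are lysosomal, so it is not wholly separate from the lysosome genes. In MOLM-14, 6 of 12 rose and 1 fell, and the summed intensity of the list went from 1319 to 1447 in DMSO to 3152 to 3192 in R406. In U937, 5 rose, from 755.5 to 781 in DMSO to 1203 to 1252 in R406. HL-60 had 3 that rose and 1 that fell, from 2298 to 2515 to 3319.5 to 3464. KG-1, where 24 of the 38 lysosome genes rose, had 2 markers that rose and 2 that fell, and its sum was 828 to 859.99 in DMSO and 798 to 801 in R406. A sum weighs bright genes most. The median effect of the 12 markers was 0.21 in MOLM-14, 0.20 in U937, 0.14 in HL-60 and 0.022 in KG-1. TYROBP, an adaptor of myeloid receptors, rose in all 4 lines, by 2.90 ± 0.10 in MOLM-14 and 1.63 ± 0.10 in KG-1. ITGAM, the alpha M integrin, rose in MOLM-14, U937 and HL-60 and fell by 1.80 on the log2 scale in KG-1. The scavenger receptor genes CD163, MRC1 and MSR1 stood at 5.92 to 7.47 in the DMSO groups, near the lowest intensities. Granulocyte precursor markers went the other way in HL-60, where 4 of 6 fell and 1 rose (sums of 10773 to 11453 in DMSO and 6158 to 6686 in R406), and in MOLM-14, where 4 fell (sums of 7237 to 7836 in DMSO and 4438 to 4792 in R406). In U937, 1 of them rose, and in KG-1, 2 rose and 1 fell. Stem and progenitor markers rose for 3 of 5 in MOLM-14 (sums of 1235 to 1279 in DMSO and 2952 to 3096 in R406), 4 in KG-1 (sums of 1418 to 1554 in DMSO and 2689 to 3359.6 in R406) and 1 in U937, and 2 fell in HL-60. The T and NK cell list had 1 of 5 higher in MOLM-14 (sums of 174 to 197 in DMSO and 306 to 339.9 in R406) and in KG-1 (sums of 313 to 319 in DMSO and 518 to 654 in R406), NKG7 in both, and NKG7 was lower in HL-60. Of 6 fibroblast and epithelial markers, COL3A1 and KRT18 rose in KG-1 (sums of 61.6 to 66.2 in DMSO and 150.2 to 244 in R406), and in MOLM-14 KRT8 rose and KRT18 fell (sums of 231 to 243 in DMSO and 201 to 214 in R406). Of 4 erythroid markers, 1 rose in MOLM-14 and 1 in KG-1. The part of these lists in the lysosomal changes was not tested either. B cell markers summed to between 34.8 and 58.5 on any array, and those of the megakaryocyte, of which 3 of 5 rose in MOLM-14 and 2 rose and 1 fell in KG-1, to between 54.3 and 131.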

How the data were processed

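The authors deposited robust multi-array average (RMA) intensities on a linear scale for 24 Affymetrix human expression arrays, with RMA named in the submitters' processing notes and no version given in the sources used here. RMA corrects background, normalizes by quantiles and summarises probes, so differences between arrays in total signal are removed. Of 22277 probe sets, 62 control probe sets, 568 with several gene symbols and 1923 with none were left out. Symbols came from the platform annotation, updated through gene IDs, and each of 12165 genes was represented by its brightest probe set, which for 16 of the 38 genes can bind related transcripts.

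The model, in limma (version 3.58.1, under R version 4.3.3), described log2(intensity + 1) with 8 group means and 16 residual degrees of freedom. Empirical Bayes variances were used, and p-values were adjusted by Benjamini-Hochberg over all genes, separately for each contrast. The fit was tested on simulated data. All array values are given for the 3 genes of each role with the largest called effect in any line, for genes called against the majority of a line, and for both transcription factors. Other pathway lists name up to 3 genes with the largest called effect. The genes, lists and tests were chosen with earlier results of these data known. Groups came from the sample labels.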

Additional observations from a re-analysis of the deposited data

Results flagged for a closer look

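For 34 of the 38 genes the R406 effect differed between the 4 lines by the F test of that difference (adjusted p under 0.05), which is why they are listed. The value for each gene is the highest minus the lowest log2 effect among the lines. Among the hydrolases it was 2.39 for ASAH1, 2.31 for MANBA, 2.18 for FUCA1, 1.65 for SGSH, 1.22 for TPP1 and 1.16 for GAA. It was 1.12 for HEXA, 0.99 for MAN2B1, 0.96 for ARSA, 0.93 for IDS, 0.87 for ACP2 and 0.70 for NEU1. Smaller values were 0.64 for GLB1, 0.64 for ARSB, 0.63 for LIPA, 0.61 for PPT1, 0.53 for SMPD1 and 0.46 for GLA. Among the lipid transfer and activator proteins it was 2.41 for GM2A, 1.67 for PSAP and 1.43 for NPC2. Among the membrane proteins it was 1.48 for NPC1, 1.03 for CD63, 0.99 for LAMP2, 0.74 for SCARB2, 0.55 for MCOLN1 and 0.45 for CLN3. Among the proton pump genes it was 1.06 for ATP6AP1, 0.48 for ATP6V1B2, 0.47 for ATP6V1H, 0.42 for ATP6V0D1 and 0.33 for ATP6V1A. Among the transcription factors it was 1.32 for TFE3 and 1.31 for TFEB.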

How the results depend on the processing

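The alternatives were a repeated quantile normalization, centring each array on its median, leaving out the dimmest 33.3% of genes, a pseudocount of 16, averaging the probe sets of a gene, leaving out probe sets that can bind related transcripts, fitting each line alone, limma's trend and robust variance settings, a replicate block and leaving out each array. With the pseudocount of 16, 1 gene fell in MOLM-14 and 1 in KG-1, and the MOLM-14 median effect was 0.65. Without the probe sets that can bind related transcripts, which leaves 30 genes measured, 8 rose in HL-60 and 1 fell in MOLM-14. Then 0 fell in KG-1 and 1 fell in the mean of 4 lines. ARSB and MAN2B1, the genes that fell in KG-1, were not measured there, so their falls were not tested again. CLN3, MCOLN1 and ATP6V1H, which rose in HL-60, dropped out in the same way. SMPD1 turned to -0.043 in MOLM-14 and -0.15 in HL-60. Averaged probe sets gave median effects of 0.72 in MOLM-14, 0.21 in U937 and 0.24 in KG-1. Repeated quantile normalization gave 0.86 in MOLM-14, and median centring gave 0.14 in U937. In U937, 2 genes fell with median centring, 2 without the dimmest genes, and 0 in a fit of U937 alone. With each array left out in turn, the number that rose ran from 31 to 32 in MOLM-14, 14 to 15 in U937, 10 to 12 in HL-60 and 23 to 25 in KG-1, and the number that fell from 1 to 2, 0 to 1, 3 to 5 and 1 to 3. The median effects ran from 0.78 to 0.84, 0.17 to 0.23, 0.084 to 0.10 and 0.29 to 0.38. In the mean of 4 lines, 32 to 33 genes rose and 2 fell in each case, 32 to 35 differed in effect between lines and 37 to 38 between the DMSO groups. Under every alternative run for it, 30 of the 32 genes that rose in MOLM-14 were still called, as were 12 of 17 for U937, 8 of 13 for HL-60 and 19 of 24 for KG-1. The causes of these changes were not tested.

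Replicates with the same number in a line did not deviate together (correlations from -0.085 to 0.069), so the numbers were not taken to pair the arrays. With a replicate block, 32 genes rose in MOLM-14, 16 in U937, 11 in HL-60 and 24 in KG-1. The block was not run for the DMSO groups, because it lies within a line. Group sizes of 3 arrays limit the precision.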
